A study of Mus musculus with 4 samples.

Results

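The transcripts described here encode the protein components of the cytosolic ribosome. Members were the genes of the deposited table whose symbol has the form Rpl or Rps followed by a number, with an optional closing letter or digit, together with Rplp0, Rplp1, Rplp2 and Rpsa. The rule found 84 of 21878 genes, 52 of the large and 32 of the small subunit. The 84 comprise 77 canonical ribosomal protein genes and 7 named copies, namely Rpl3l, Rpl7l1, Rpl10l, Rpl22l1, Rpl32l, Rpl39l and Rps27l. Rpl10l, a retrogene copy of Rpl10, had 0 counts in all 4 libraries, and the other 83 members (51 large, 32 small) passed the filter on low counts and were tested.

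RNA was sequenced from bone marrow-derived macrophages of C57BL/6 mice, 8 weeks old per the labels, after culture with MC38, a mouse colon carcinoma cell line held in a separate insert. Of the 4 libraries, 2 came from wild type mice (WT) and 2 from anti-Act1 mice, described as carrying a macrophage-specific knockdown of Act1, an adaptor protein of the IL-17 receptor. The labels give 48 h of coculture and the study's text a shorter time, and the construct behind the knockdown and its promoter are not given in the sources used here. The study's text calls the 2 libraries of a group biological replicates and does not say whether they came from separate mice, so p-values measure the spread between these libraries.

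Every ribosome joins a small subunit, which reads the mRNA codon by codon, with a large subunit, which forms the peptide bonds, and each protein of a subunit is needed in about the same number of copies. Ribosomal protein mRNAs are short and abundant, and most begin with a run of C and T bases (a 5′ terminal oligopyrimidine tract, or TOP), through which mTORC1 and the protein LARP1 adjust their translation. Their output is adjusted largely at the level of translation, which RNA counts do not show.

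The run of C and T bases can be seen around the annotated starts, and it is shown because it is the sequence feature these genes are best known to share. RefSeq (GRCm38.p6) windows of 30 bases, 15 before and 15 from the first transcribed base on, were read along the strand of the gene for 64 of the 84 members. The longest run of C or T is in capitals. The examples are the called members with the longest runs, Rpl7a (chr2:26910792-26910821, plus strand) and Rpl27a (chr7:109519180-109519209, plus), then Rps6 (chr4:86857353-86857382, minus) and Rpl38 (chr11:114668565-114668594, plus), which were not called, and Rpl24 (chr16:55966260-55966289, plus) and Rps3 (chr7:99483695-99483724, minus), which were called and whose windows hold no long run.
Rpl7a: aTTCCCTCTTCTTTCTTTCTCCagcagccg
Rpl27a: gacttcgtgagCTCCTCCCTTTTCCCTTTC
Rps6: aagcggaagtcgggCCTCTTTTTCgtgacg
Rpl38: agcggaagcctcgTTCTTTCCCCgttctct
Rpl24: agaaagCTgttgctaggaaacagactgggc
Rps3: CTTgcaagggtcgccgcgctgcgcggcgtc

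A run of at least 7 bases made of C or T only, on the strand of the gene, lay in the window of 35 of 64 members (54.7%) and of 5747 of 27025 genes in the RefSeq table (21.3%), where a gene with several annotated starts counts once if any of its windows holds the run. The share was alike in the subunits, with 22 of 40 large (55%) and 13 of 24 small (54.2%) members. At the annotated start itself, a C followed by 4 bases of C or T was found in 14 members (21.9%) and in 3.01% of all genes. Among members with a window, 4 of the 9 called and 31 of the 54 tested but not called held the run of 7. The pattern at the start itself was found in 0 of the 9 and 14 of the 54. These differences were not tested. The missing entries include Rpl17 and Rps14. A match describes the letters around an annotated start and says nothing of translation in these cells.

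The libraries held 55435063 to 75062945 counts, and both libraries labelled WT were the deeper ones. Macrophage markers summed to 25346 to 26875 CPM, that is counts relative to a TMM-scaled library total, most of it Lyz2. Within that list Mrc1, Mertk and Itgam were lower under the anti-Act1 label (log2 fold changes of -0.63, -0.40 and -0.31) and Cd14 higher (0.16), and their part in the results was not tested. The 10 epithelial markers for MC38 summed to 0.330 to 0.898 CPM with 5 of them at 0 counts in every library. Traf3ip2, the Act1 gene, was not lower under the anti-Act1 label, with 6.98 CPM in WT 1, 7.54 in WT 2, 9.63 in anti-Act1 1 and 7.84 in anti-Act1 2 (edgeR adjusted p = 0.117). The labels are therefore used here as names of the libraries. The Y-linked genes Ddx3y and Eif2s3y had 5741 to 7360 and 4367 to 5546 counts under the WT label and at most 1 count under the anti-Act1 label, so the sex of the mice and the genotype label cannot be told apart. The 4 tested members on the X chromosome, Rpl10, Rpl36a, Rpl39 and Rps4x, had log2 fold changes of 0.10, 0.08, -0.02 and 0.06 and adjusted p-values of 0.168 to 0.876.

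Ribosomal protein mRNAs stayed near the same level in both groups. They took 2.50% of all counts in WT 1, 2.30% in WT 2, 2.47% in anti-Act1 1 and 2.40% in anti-Act1 2, so both anti-Act1 values lay between the WT values. The large subunit took 1.497%, 1.37%, 1.47% and 1.42% of the counts in the same order of libraries. The small subunit took 1.01%, 0.920%, 1.00% and 0.981%. Summed per gene length, as FPKM, the large subunit stood at 1.48, 1.48, 1.48 and 1.46 times the small subunit, so the balance between the subunits moved little in any library. In bulk RNA a change of the number of cells and of the RNA in each cell cannot be told apart.

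The median log2 fold change (anti-Act1 over WT) was 0.05 over the 51 large subunit members and 0.04 over the 32 small subunit members, beside 0.00 (-0.00457) over all 12494 tested genes. The SD that the libraries of a group give these medians was 0.068 for the large and 0.0697 for the small subunit, larger than the medians themselves. Of the 83 tested members, 58 had a log2 fold change above 0 and 25 below, and 77 lay within 0.2 of 0 in either direction. Among the 65 canonical members that did not pass the test, fold changes ran from 0.854 (Rpl21) to 1.10 (Rpl8), and the smallest adjusted p was 0.0708 (Rpl8). Over the 77 canonical members, the log2 group mean FPKM correlated between the groups with Pearson's r = 0.989 and Spearman's rho = 0.988. These values describe genes that share libraries and differ widely in level, so they cannot show that single members kept theirs. Rpl17, for example, had a fold change of 0.536.

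**Figure D1:**
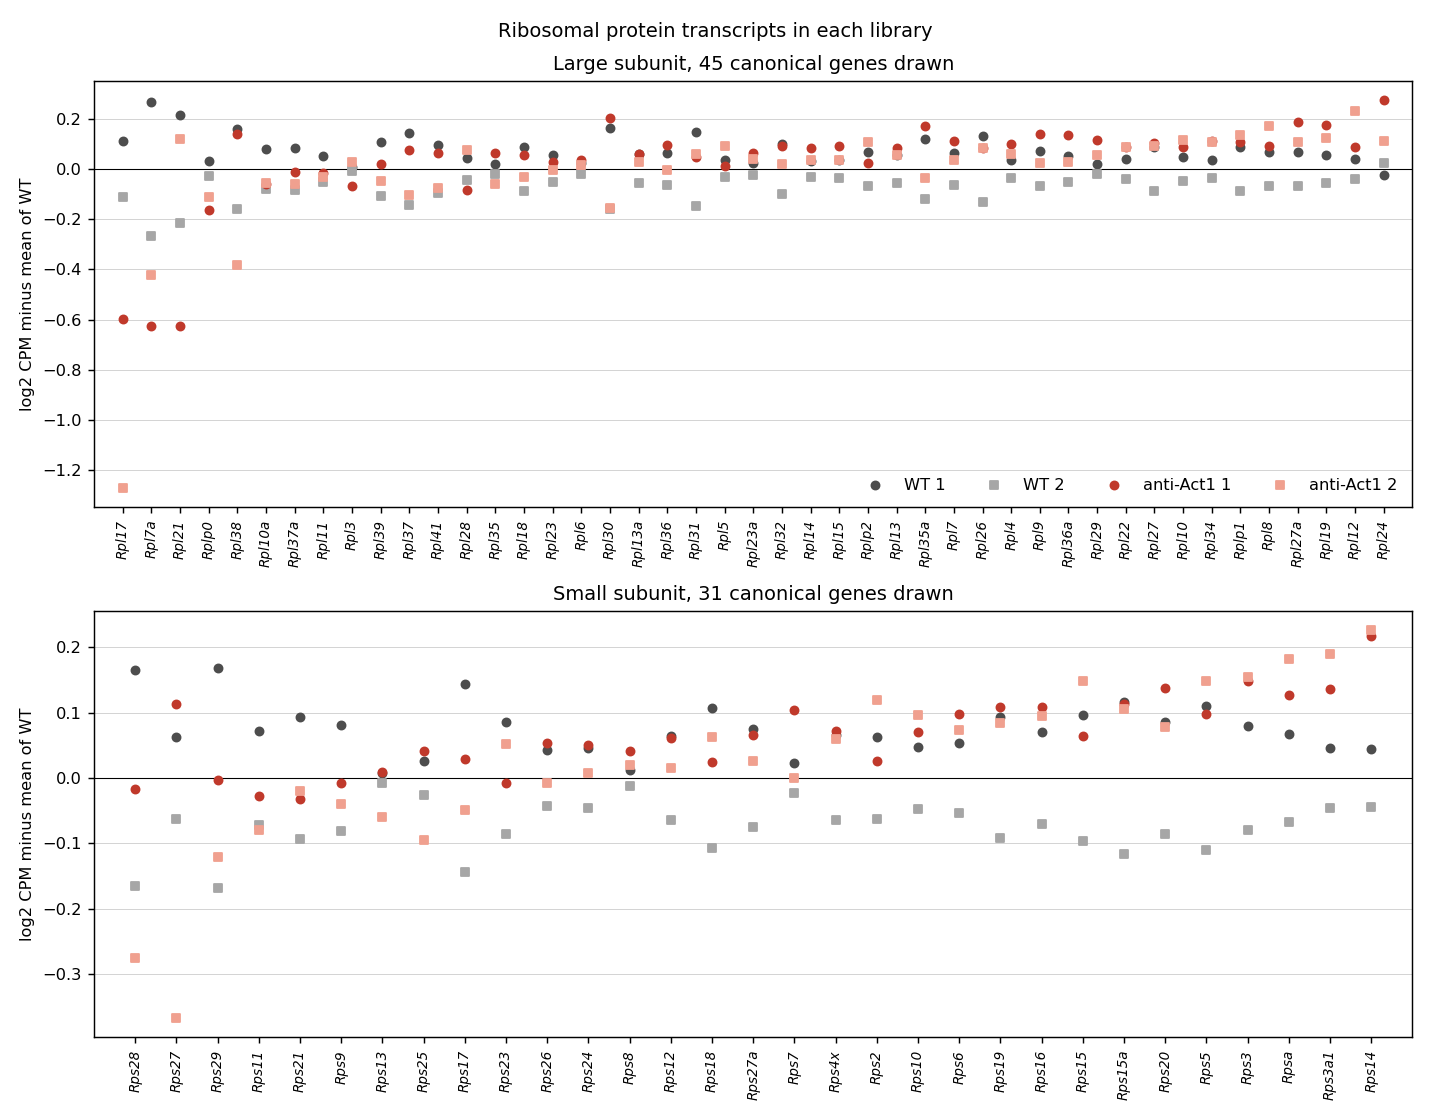
Log2 CPM of canonical members in each library minus its mean over the libraries labelled WT, for 45 large (upper panel) and 31 small subunit genes (lower panel, with its own scale), ordered by log2 fold change; circles are replicate 1 and squares replicate 2, grey WT and red anti-Act1. WT 2 lies below WT 1 for nearly all genes, most anti-Act1 points lie near the WT points, and Rpl17 falls to -1.27 in anti-Act1 2.

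The libraries of a group differed from each other in the same direction over most members. WT 2 was below WT 1 for 81 of the 83 members (all genes 6196 of 12494), with a median difference of -0.13 in log2 CPM where the median of all genes was 0.00132. Anti-Act1 2 was below anti-Act1 1 for 55 members, with a median of -0.03. For 61 of the 83 members (36 large, 25 small) the gap between the libraries labelled WT exceeded the gap between the group means, which was so for 5212 of all 12494 tested genes. The median deviation of the members from the WT mean was 0.06 in WT 1, -0.06 in WT 2, 0.07 in anti-Act1 1 and 0.04 in anti-Act1 2. Both libraries labelled anti-Act1 were therefore close to WT 1 or between WT 1 and WT 2, and WT 2 stood lowest.

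In the edgeR quasi-likelihood test with Benjamini-Hochberg adjustment over all tested genes, 12 of the 83 members (14.5%) had an adjusted p under 0.05, while 20.7% of all tested genes did. Higher under the anti-Act1 label were 9, where the share of all tested genes was 10.9%, and 3 lower, where it was 9.76%. The large subunit had 8 of 51 (15.7%), with 5 higher, among them Rpl12, Rpl19, Rpl24 and Rpl27a, and Rpl17, Rpl7a and Rplp0 lower. The small subunit had 4 of 32 (12.5%), with Rps3, Rps3a1, Rps14 and Rpsa higher and 0 lower in edgeR and also 0 lower in DESeq2, and 6 of its members had an unadjusted p under 0.05 in either direction. The CPM of the groups did not overlap for 29 members (34.9%; 18 large higher, 3 large lower and 8 small higher), beside 57.1% of all tested genes. The shares of members called and of members whose groups stood apart were below those of all tested genes, a difference that was not itself tested. The smallest p that an exact permutation test of 2 libraries against 2 allows is 0.333, so the calls rest on the spread that the model shares across genes.

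**Figure D2:**
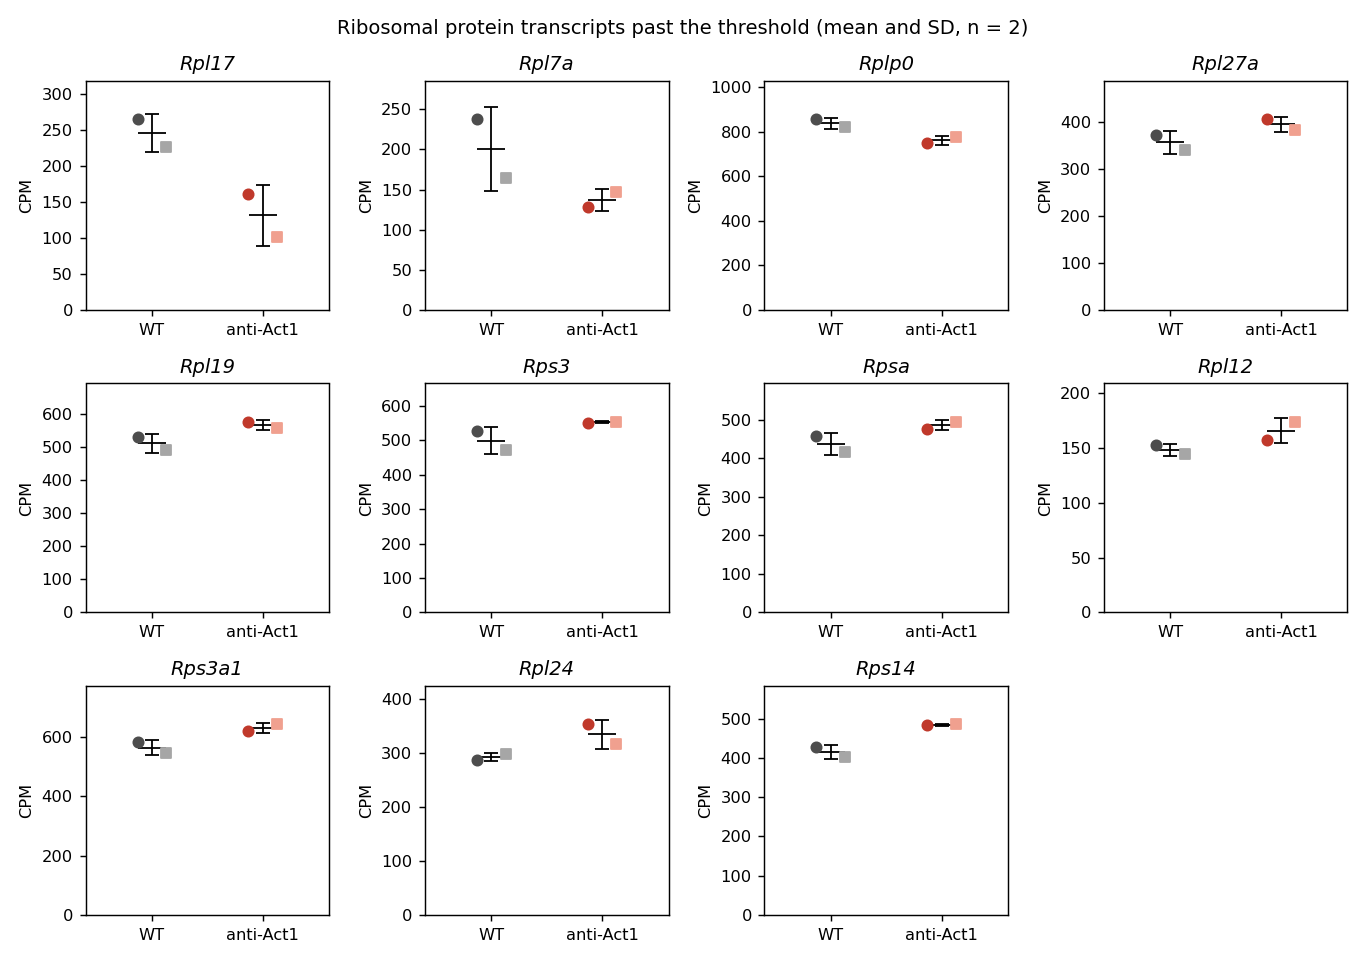
CPM of 11 of the 12 members with an adjusted p under 0.05 in each library, ordered from the largest fall to the largest rise; points are libraries (circle replicate 1, square replicate 2), and the horizontal dash and whiskers are the mean and SD of 2 libraries, on axes from 0. The 8 rises drawn are small beside the level, from 1.11-fold to 1.17-fold, while Rpl17 and Rpl7a show both the largest falls and wide gaps within a group.

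Among the members called, the largest difference was in Rpl17, a large subunit protein near the mouth of the tunnel through which the new peptide leaves. Rpl17 was at 265 and 227 CPM in WT and at 162 and 101 CPM in the libraries labelled anti-Act1, which is a log2 fold change of -0.90 with an SE of 0.09 in the edgeR model (adjusted p = 3.93e-11). All values labelled anti-Act1 lay below all WT values, and the 2 libraries labelled anti-Act1 differed from each other by 0.67. Taken from its own 4 libraries alone, the difference was -0.93 with an SE of 0.35, about 4 times the SE of the model, and DESeq2 gave an adjusted p of 0.0568. Rpl7a, which sits close to the same tunnel, was at 238 and 164 CPM in WT and 128 and 147 CPM in the libraries labelled anti-Act1 (log2 fold change -0.55, SE 0.08, adjusted p = 4.91e-07). The gap between the WT libraries of Rpl7a, 0.54 in log2 CPM, was as large as the difference between groups, -0.52 with an SE of 0.29 from its own libraries, and DESeq2 gave an adjusted p of 0.207. Without WT replicate 1 the log2 fold change of Rpl7a was -0.25.

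Rplp0, the protein that anchors the stalk of the large subunit and a common reference gene in RT-qPCR, was at 857 and 822 CPM in WT and at 748 and 776 CPM in the libraries labelled anti-Act1. The log2 fold change of Rplp0 was -0.14 with an SE of 0.05 (adjusted p = 0.0392), and the SE from its own libraries was 0.04, so that its groups did not overlap and its replicates lay close together. The stalk proteins that pair on Rplp0 did not fall with it. Rplp1 was at 528, 468, 535 and 546 CPM (log2 fold change 0.12, adjusted p = 0.112) and Rplp2 at 216, 196, 209 and 221 CPM (0.06, adjusted p = 0.453), in the order WT 1, WT 2, anti-Act1 1, anti-Act1 2. Rpl12, at the base of the same stalk, rose with 152, 144, 157 and 174 CPM (0.16, SE 0.05, adjusted p = 0.0274).

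Rpl24, which forms a bridge to the small subunit and joins late in assembly, had the largest rise of the large subunit members called, with 287 and 297 CPM in WT and 353 and 315 CPM in the libraries labelled anti-Act1 (log2 fold change 0.19, SE 0.05, adjusted p = 0.00561). It was also the single canonical member in which WT 2 lay above WT 1. Rpl19, another bridge protein, rose from 531 and 491 to 576 and 556 CPM (0.15, adjusted p = 0.0326). Rpl27a was at 373, 340, 406 and 384 CPM (0.15, adjusted p = 0.0396). Rpl24 and Rpl19 share exons with Gm28037 and Gm11629 on the same strand in GENCODE M21, so reads of these neighbours could have been counted with them.

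Rps14, a protein of the platform of the small subunit whose loss causes the anaemia of the human 5q- syndrome, was called under more alternatives than any other member, 17 of 18. It was at 429 and 403 CPM in WT and 483 and 486 CPM in the libraries labelled anti-Act1 (log2 fold change 0.22, SE 0.05, adjusted p = 9.01e-04), and the SE from its own libraries was 0.04. The libraries labelled anti-Act1 were almost equal and both stood above WT. Rps3a1, its neighbour on the platform, rose from 582 and 546 to 619 and 643 CPM (0.16, adjusted p = 0.0164). Rpsa, the small subunit protein also known as a laminin receptor, rose from 457 and 417 to 477 and 495 CPM (0.15, adjusted p = 0.0288). Rps3, which lines the mRNA entry channel and also binds the RelA subunit of NF-κB, rose from 526 and 471 to 551 and 554 CPM (0.15, adjusted p = 0.0359).

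Of the 12 calls, 7 had a difference of more than 2 SE when the SE was taken from the gene's own 4 libraries, namely Rpl17, Rpl19, Rpl24, Rplp0, Rps14, Rps3a1 and Rpsa. The calls depended on every library. Without WT replicate 1, so that WT 2 stood alone, 26 members were called (31.3%, all tested genes 19.9%), 24 of them higher, and 11 of the 12 calls were kept. Without WT replicate 2, 10 members were called (12%, all genes 15.5%), of which 2, Rpl24 and Rps14, were higher and 8 lower, and 5 of the 12 were kept. Leaving out anti-Act1 1 gave 8 calls (9.64%, all genes 13.4%) with 5 kept. Leaving out anti-Act1 2 gave 6 (7.23%, all genes 13%) with 4 kept. The share of members was thus above that of all tested genes in the fit without WT 1 and below it in the other 3 fits. Rps14, Rpl17 and Rpl7a were called with the same sign in all 4 of these fits. The cause of the difference between the WT libraries was not tested.

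Of the 8 members chosen for a known second role, Rps3 was called and the other 7 were not (all tested genes 20.7%). Rpsa, called and also known as a laminin receptor, was not among the 8, so the share depends on the list. Rpl5 and Rpl11, which with 5S rRNA bind MDM2 and stabilise p53, had 460, 439, 453 and 479 CPM (log2 fold change 0.05, 95% interval -0.05 to 0.15) and 303, 282, 289 and 286 CPM (-0.03, -0.13 to 0.08). Rps6, the substrate of S6 kinase downstream of mTORC1, had 434, 403, 448 and 440 CPM (0.08, -0.02 to 0.18). Rpl13a, which in IFNγ-treated myeloid cells leaves the ribosome to silence inflammatory mRNAs, had 534, 493, 535 and 524 CPM (0.04, -0.06 to 0.14). These intervals, 1.96 SE of the edgeR model either side, leave room for a difference of up to about 0.2 on the log2 scale. Rps19, whose mutation causes Diamond-Blackfan anaemia, had 202, 178, 205 and 201 CPM (0.09, -0.01 to 0.20), and Rps25, needed for initiation on some viral RNAs, had 307, 296, 311 and 283 CPM (-0.02, -0.13 to 0.08). Rpl38, needed for translation of Hox mRNAs in the embryo, had 69.1, 55.4, 68.1 and 47.3 CPM (-0.10, -0.27 to 0.07), with lower values in the second library of each group. The SE of Rpl38 was 0.09 in the model and 0.30 from its own libraries, so its interval understates the spread between them.

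Levels per gene length differed far more between members than between groups. The mean FPKM of the 46 canonical large subunit genes ran from 16.2 (Rpl21) to 1109 (Rplp1) with a median of 338, and that of the 31 small subunit genes from 66.3 (Rps15a) to 754 (Rps14) with a median of 356. Of the 50 genes with the highest mean FPKM 3 were members, and of the top 200 genes 48. After Rplp1, the highest large subunit levels were Rpl41 at 1004 FPKM, Rpl10, which is placed late on the subunit surface, at 895 and Rpl26 at 766. The small subunit was led by Rps14, Rps23 at 673, Rps26 at 635 and Rps3a1 at 633. None of Rpl41, Rpl10, Rpl26, Rps23 and Rps26 passed the test, with log2 fold changes of -0.01, 0.10, 0.08, 0.02 and 0.02.

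The lowest canonical levels per length went with long gene lengths in the authors' annotation. Rps15a had 355, 302, 354 and 352 CPM, within the usual range of the members, yet only 66.3 FPKM, because its length is set at 5136 bases. Rps20 likewise had 282, 251, 293 and 281 CPM, a length of 3446 bases and 80.3 FPKM. Rpl21 was low on both scales, with 46.1, 34.1, 25.5 and 43.1 CPM and a length of 2299 bases. Its libraries did not separate by group (log2 fold change -0.23, adjusted p = 0.149), and the value ran from -0.65 without anti-Act1 replicate 2 to 0.11 without anti-Act1 replicate 1.

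**Figure D3:**
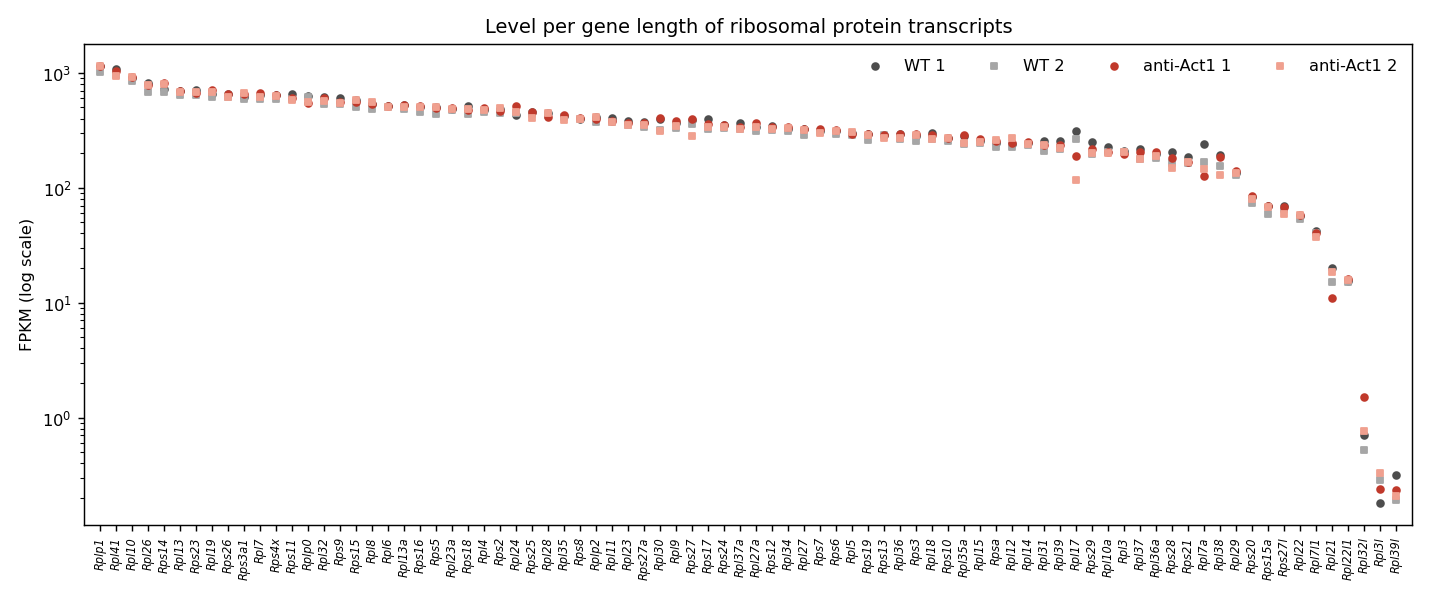
FPKM (log scale) of 82 of the 83 tested members in each library, ordered by the mean, with circles for replicate 1, squares for replicate 2, grey for WT and red for anti-Act1. Canonical members spread from 16.2 to 1109 in mean FPKM, the 4 libraries nearly coincide for most genes, and Rpl17, Rpl7a and Rpl21 show wide gaps between libraries.

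The named copies were low beside their partners. Of the 6 tested copies 0 passed the test in edgeR (all tested genes 20.7%) or in DESeq2 (all tested genes 12.8%). In edgeR 1 had an unadjusted p under 0.05, as did 3918 of all 12494 tested genes. With 6 genes, these counts say little about the copies. Rpl22l1 was at 15.6 FPKM and Rpl22 at 56.5, with log2 fold changes of 0.07 and 0.09. Rpl7l1, which works in ribosome assembly, was at 39.9 FPKM beside 630 for Rpl7 (-0.05 and 0.07). Rps27l was at 65.5 FPKM beside 356 for Rps27 (-0.07 and -0.11). Rpl3l, a striated muscle form, and Rpl39l, a testis form, were at 0.258 and 0.237 FPKM beside 203 and 233 for Rpl3 and Rpl39. Rpl32l had 0.418 and 0.303 CPM in WT and 0.891 and 0.458 CPM in the libraries labelled anti-Act1, and its log2 fold change of 0.92 with an SE of 0.45 (adjusted p = 0.155) rests on few counts. Reads of near-identical copies and pseudogenes may have been split or dropped in counting, which makes the levels of the copies uncertain.

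Ribosomal protein genes are short, and short genes as a class differed between these libraries. The members had a median length of 740 bases (346 to 5136), and 74 of the 83 were shorter than 1500 bases, while all tested genes had a median of 2822 bases. Tested genes other than members had a median log2 fold change of 0.04 below 500 bases, 0.08 from 500 to 1000, 0.06 from 1000 to 1500, 0.00 (0.000274) from 2000 to 3000 and -0.06 above 5000 bases. Members of up to 1500 bases lay below these values in each length class and subunit. From 500 to 1000 bases, the 29 large subunit members had a median of 0.06 and the 19 small subunit members 0.05. Up to 1500 bases, the 74 members had a median of 0.05 with 10 called (13.5%), and the 2059 other genes 0.06 with 355 called (17.2%). Up to 1500 bases, the median of the members was thus no higher than that of other genes. Longer members were few. From 1500 to 2000 bases, 2 small subunit members had a median of 0.15, both called, and 2 large subunit members 0.17. Other genes of that length had 0.02, with 18.9% called. From 2000 to 3000 bases, 3 large subunit members had a median of -0.05 beside 0.00. Rps20 and Rps15a were at 0.11 and 0.10, where other genes of their length classes had -0.03 and -0.06.

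In a further fit a trend on gene length was removed from each library's log2 CPM, taken relative to the gene's mean over all libraries. The medians were 0.01 for the large and -0.01 for the small subunit. In that fit 6 members were called, 7.23% beside 20.5% of all tested genes (Rpl17, Rpl7a and Rplp0 lower, Rps3, Rps14 and Rpsa higher). The 5 calls of higher level in the large subunit were then 0. Mitochondrial ribosomal proteins are another class of short genes, with 77 members and a median length of 1065 bases. In the fit without removal of the trend they had a median of 0.02 and 1 call (1.3%, all tested genes 20.7%).

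**Figure D4:**
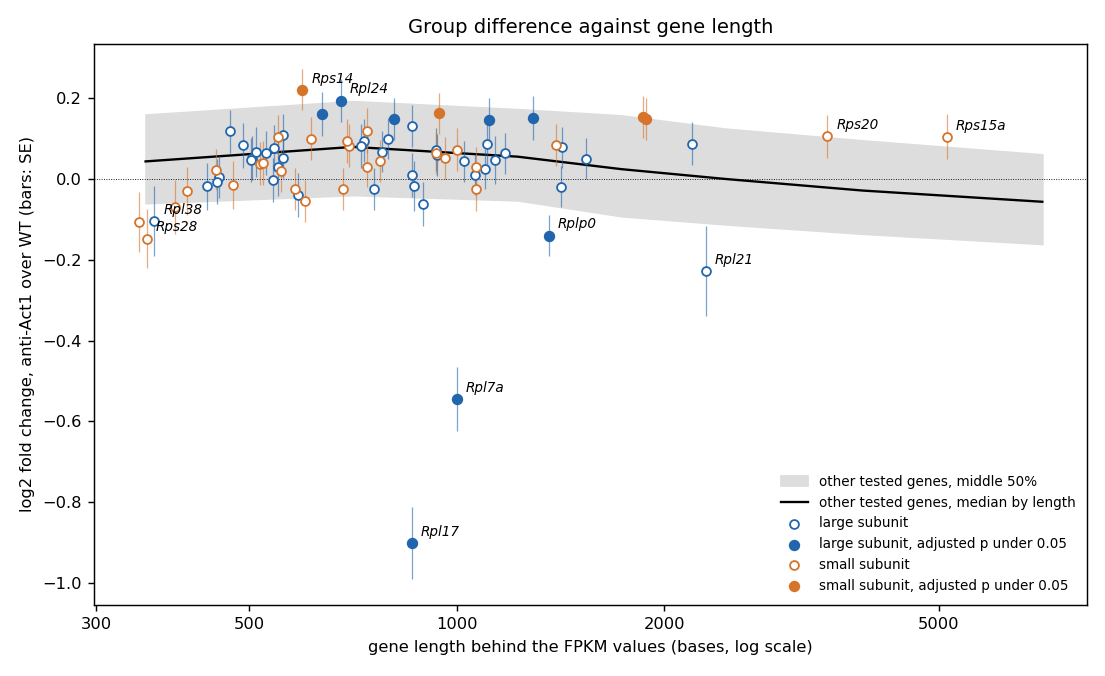
Log2 fold change of the 77 canonical members (anti-Act1 over WT, bars are 1 SE of the edgeR model) against gene length on a log axis, large subunit in blue and small in orange, filled where the adjusted p was under 0.05; the line and grey band are the median and the middle 50% of other tested genes in length classes. Most members lie inside the band, with Rpl17 and Rpl7a far below it and Rps14 above.

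The 8 members under 450 bases had a median log2 fold change of -0.05, 7 of them were below 0 and 0 were called in edgeR, with 1 at an unadjusted p under 0.05, while the 39 other tested genes of that length had a median of 0.02 and 2 calls (5.13%). Up to 500 bases, the 6 large subunit members had a median of -0.00 (-0.00123) with 3 above 0 and 3 below, and the 6 small subunit members -0.05 with 1 above and 5 below. Rps28 was at 72.6, 57.7, 64.0 and 53.4 CPM (-0.15, adjusted p = 0.156). Rps27 was at 133, 122, 138 and 99.0 CPM (-0.11, adjusted p = 0.345). In each of these the second library of a group lay below the first. Over these 8 members the median of WT 2 minus WT 1 was -0.20 and that of anti-Act1 2 minus anti-Act1 1 was -0.13, both larger than their difference between the groups. Rps27, Rps28 and Rpl38 were called lower when WT replicate 2 or anti-Act1 replicate 1 was left out.

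Differences between libraries of a group also went with length over all genes. Across the 12491 tested genes with a length, WT 2 minus WT 1 had Pearson's r = 0.223 and Spearman's rho = 0.290 with log2 length, and the log2 fold change -0.06 and -0.175. Across the 77 canonical members the log2 fold change had r = 0.0742 and rho = 0.259, and anti-Act1 2 minus anti-Act1 1 had r = 0.368 and rho = 0.356. These genes share libraries and depth, so the values describe these libraries only. Of the canonical members, 5 had a gap of more than 0.4 in log2 CPM between libraries of a group, namely Rpl17, Rpl7a, Rpl21, Rpl38 and Rps27. The part of gene length in the differences between the groups was not tested beyond the fit with the trend removed.

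**Figure D5:**
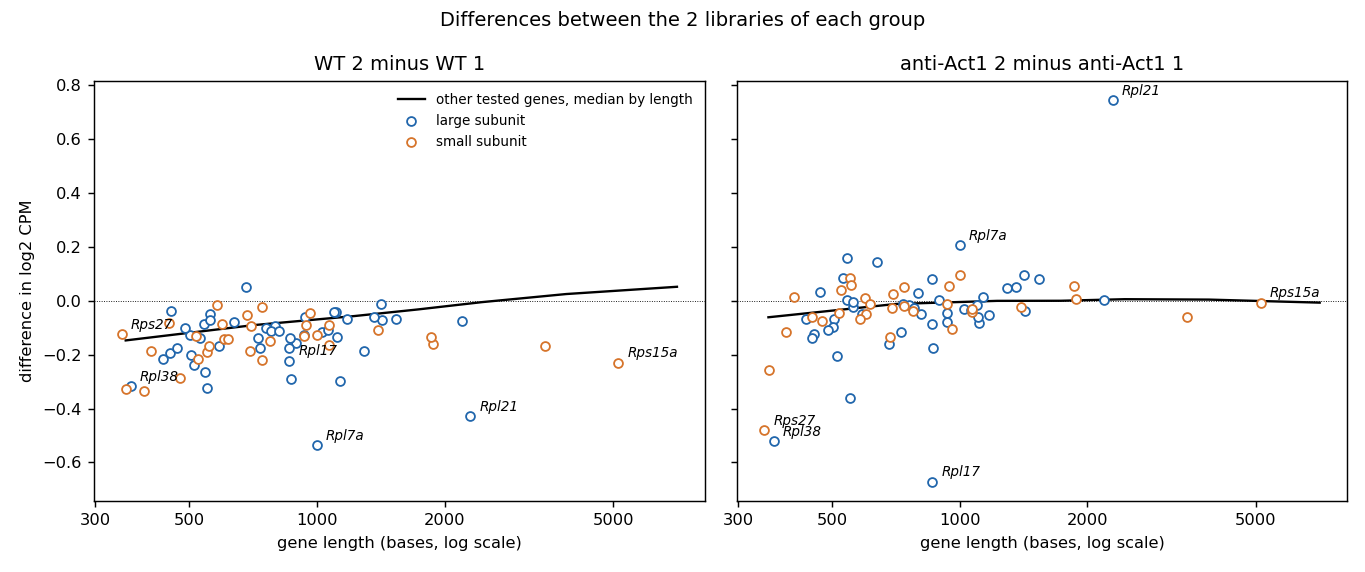
Difference in log2 CPM between the libraries of a group (left WT 2 minus WT 1, right anti-Act1 2 minus anti-Act1 1) against gene length on a log axis for the 77 canonical members, large subunit in blue and small in orange, with the median of other tested genes as a line. In WT nearly all members lie below 0 and below the line, and in anti-Act1 they scatter about the line, with Rpl17, Rpl38 and Rps27 lowest and Rpl21 highest.

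Many ribosomal protein genes carry a small nucleolar RNA gene in an intron, and GENCODE M21 places at least 1 within 30 of the tested members. Their median log2 fold change was 0.05, the same to 2 decimals as that of the 53 members without. Of the 30, 6 were called higher, and Rpl17 and Rpl7a, each with 3 such genes, lower. Among the 53, 3 were called higher and 1 lower. Of all tested genes 10.9% were called higher and 9.76% lower, and the difference between the 30 and the 53 was not tested. Rpl21, with its wide gaps between libraries, holds 2. Counts of the small nucleolar RNAs themselves were not analysed here.

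Of 4 ribosomal protein genes that the naming rule leaves out, 1 was called higher and 0 lower, with a median log2 fold change of 0.07. Fau, Rack1 and Rpl36al had log2 fold changes of 0.06, 0.07 and 0.06 without a call. Of 8 genes listed with the elongation factors 1 passed the test, Tpt1, which interacts with them but is not an elongation factor itself (0.14, adjusted p = 0.0373), and Eef1a1 and Eef2 were at 0.03 and 0.04. Of 30 initiation factors 6 were higher and 2 lower (26.7% called, all tested genes 20.7%), with a median of 0.00 (0.00325). Eif2s3x rose by 0.60 on the log2 scale beside the loss of counts of its Y-linked partner Eif2s3y, and Eif3a fell by 0.17 (adjusted p = 0.00964). Of 19 TOP mRNAs other than ribosomal proteins 3 were higher, among them Tpt1 and Pabpc1, and 1 lower (Nap1l1, -0.31, adjusted p = 4.50e-05), with a median of 0.03. The shares called were 25% outside the rule, 12.5% in the elongation list and 21.1% among these TOP mRNAs. Differences of these lists from the 20.7% of all tested genes were not tested.

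Of 43 ribosome biogenesis factors, with a median length of 2647 bases, 6 were lower and 2 higher (18.6% called, all tested genes 20.7%). Their median log2 fold change was -0.06, and 28 lay below 0, as did 6368 of all 12494 tested genes. The largest fall was that of Heatr1, which works in transcription and processing of pre-rRNA, at 54.7 and 57.3 CPM in WT and 37.2 and 39.0 CPM in the libraries labelled anti-Act1 (-0.56, SE 0.06, adjusted p = 9.87e-10). Gar1, Wdr74, Utp20, Bms1 and Ddx21 were also lower, by -0.47 to -0.18, and Nip7 and Sdad1 higher. Of 30 genes of RNA polymerases I and III 4 were lower (Polr1a, Ubtf, Polr3b and Gtf3c2) and 1 higher (Polr3g), which is 16.7%, with a median of -0.10. The difference between these lists and the ribosomal proteins, or other genes of their length, was not tested.

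Among 23 genes listed for mTORC1, for TOP mRNAs and for Myc and its partners, 4 were higher and 3 lower, with a median log2 fold change of -0.03. The share called was 30.4% beside 20.7% of all tested genes, a difference that was not tested. It includes Myc, Mxd1 and Mxi1, so it is not a share of mTORC1 and TOP mRNA regulators alone. Eif4ebp1, the repressor of cap-dependent initiation that mTORC1 phosphorylates, rose from 97.8 and 89.7 to 126 and 132 CPM (0.46, SE 0.05, adjusted p = 4.40e-09). Mxd1 and Mxi1, which compete with Myc for its partner Max, rose by 0.35 and 0.34, and Rptor rose by 0.17. Myc itself was low, at 3.67 and 3.75 CPM in WT and 2.36 and 2.01 CPM in the libraries labelled anti-Act1 (-0.76, SE 0.18, adjusted p = 0.00161). Deptor, an inhibitor of mTOR, fell by 0.34 and Tial1 by 0.17. Larp1 and Mtor were at 0.07 and -0.11 without a call (adjusted p = 0.350 and 0.218).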

How the data were processed

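RNA was measured in 2 libraries of each of the groups WT and anti-Act1. The authors aligned 150 bp read pairs with TopHat, and the deposited counts are whole reads per gene without normalization. The deposited FPKM are these counts per gene length and library total, by the authors, and the lengths were recovered from both tables. The submitters' processing notes name Bowtie 0.12.2, HTSeq 0.6.1 and the builds mm8 and mm10 without a role, so no gene coordinates are given. Columns of the authors' own comparisons were not used.

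EdgeR 4.0.16 (R 4.3.3) was run with TMM, filterByExpr, a model of group only and the two-sided quasi-likelihood test, adjusted by Benjamini-Hochberg over 12494 genes. Log2 differences between libraries used CPM with 0.5 added. Named members are the 4 of highest FPKM in each subunit, the largest 5 calls in each direction, stalk proteins, members with a second role, and copies with their partners. Other members, and rows such as Rpl34-ps1, were named after their values were seen, and not every gene under the rule is reported here. Members and lists were chosen with earlier results of these data known.

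Alternatives were DESeq2 1.42.0, its size factors, no composition normalization, TMM without members, no filter, at least 10 counts, a replicate block, a length trend removed (loess, span 0.3), thinned counts, limma 3.58.1 on log2 of FPKM plus 1 or plus 0.1 (at least 1 FPKM in 2 libraries) or without the filter, added pseudogene counts, each library left out and, added after the data were seen, X and Y genes left out. Symbols of all 84 members matched GENCODE M21, used for neighbours only, and 64 matched the RefSeq promoter table.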

Additional observations from a re-analysis of the deposited data

How the results depend on the processing

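The 5 calls of higher large subunit members became 1 with no composition normalization, 2 with the replicate block, and 0 with the length trend removed and with limma on FPKM with 1 or 0.1 added or without the filter. The 3 lower ones became 1 in DESeq2 and 0 with limma without the filter. The 4 higher small subunit calls became 2 with no composition normalization and with the replicate block, 1 with limma plus 1 or plus 0.1 and 0 without the filter. Leaving out each library in turn gave 1 to 14 higher and 2 to 5 lower large subunit members and 1 to 10 higher and 0 to 3 lower small subunit members. The medians then ran from -0.00410 to 0.110 for the large and from -0.0117 to 0.125 for the small subunit. Their signs held under the other alternatives, except for the small subunit with the length trend removed (-0.00702). All members called were 12 in the fit described (14.5%, all genes 20.7%), 9 in DESeq2 (10.8%, all genes 12.8%), 6 with no composition normalization (7.23%, 20.1%), 7 with the block (8.43%, 19.3%; 6 shared), 6 without the length trend (7.23%, 20.5%), 3 in limma with either pseudocount (3.75%, 19.4% and 19.3%), 0 in limma without the filter (all genes 7.04%) and 11 to 13 in the remaining fits on all 4 libraries (all genes 16.9% to 21.8%). Genes near 0 changed sign. Rps23 was -0.00527, -0.0260, -0.00324, -0.00324 and -0.00324 with no composition normalization, the length trend removed, limma plus 1, plus 0.1 and no filter, and Rps26 was -0.00199, -0.0146, -0.00221, -0.00221 and -0.00221. Rpl13a was -0.0130 with the length trend removed. With each library left out, ranges crossing 0 were -0.0752 to 0.0246 for Rpl11, -0.0130 to 0.101 for Rpl13a, -0.648 to 0.108 for Rpl21, -0.0485 to 0.214 for Rpl26, -0.0665 to 0.0313 for Rpl3, -0.390 to 0.133 for Rpl38, -0.124 to 0.0933 for Rpl39, -0.483 to 0.226 for Rpl39l, -0.101 to 0.0911 for Rpl41, -0.00410 to 0.134 for Rplp2, -0.0630 to 0.106 for Rps23, -0.0918 to 0.0430 for Rps25, -0.0189 to 0.0647 for Rps26, -0.366 to 0.114 for Rps27, -0.153 to 0.0192 for Rps27l and -0.306 to 0.0249 for Rps28. The cause of these changes was not tested. A single library left in a group is assumed to vary like the other group. Deviations of same-numbered libraries had r = -0.0297 over 12494 genes. With 2 libraries per group the other pairing gives 0.0297 by construction, so this value cannot decide whether the numbers pair the libraries. A count of 0 allows 3 counts, 0.0395 to 0.0549 CPM, counting error only.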

Other observations

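Rows outside the rule whose names derive from ribosomal protein genes gave a mixed picture. Rpl34-ps1, annotated as a pseudogene, had 1001 counts in WT 1, 1287 in WT 2, 741 in anti-Act1 1 and 774 in anti-Act1 2 (-0.31 on the log2 scale in edgeR, adjusted p = 0.0112), while its parent Rpl34 was at 0.11 without a call (adjusted p = 0.133). Rps27rt and Rpl37rt, retrogenes of Rps27 and Rpl37, were at 0.19 (adjusted p = 0.065) and -0.16 (adjusted p = 0.335). Rpl31-ps12 had 3 to 7 counts per library and was not tested. Adding pseudogene counts to their parents left 12 members called.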
